A study of Homo sapiens with 12 samples.

Results

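Serine synthesis and folate one-carbon metabolism were followed through 10 enzyme transcripts, taken by gene symbol from the deposited gene count table: PHGDH, PSAT1 and PSPH, SHMT1 and SHMT2, and MTHFD1, MTHFD2, MTHFD1L, MTHFD2L and ALDH1L2. All 10 were found among the 45478 genes of the table, and all 10 were among the 19929 genes that passed the filter on low counts. PHGDH passed it through the other groups, since 0 of the 3 libraries of parental 786-O reached the filter level of 0.264 CPM (counts-per-million of the TMM-normalized library). mRNA was sequenced from 4 groups of cultured clear cell renal cell carcinoma (ccRCC) cells with 3 libraries each. 786-O and A498 are established lines from ccRCC, and the libraries labelled parental of each are called parental below. The sunitinib-resistant libraries, called resistant below, are labelled as derived from them by growth in rising concentrations of sunitinib, a receptor tyrosine kinase inhibitor, to 4 μM for 786-O and 2 μM for A498, over 4 months or more than 20 passages. Each resistant line is a single selected population, the treatment label of every library is none while every sample title carries the tag veh, whose meaning the labels do not give, and all groups were grown in DMEM with high glucose, glutamine and serum. The comparisons ask how these transcripts differ with selection for resistance in each line and between the lines. No source used here says that the 3 libraries of a group came from separate cultures, so p-values measure only the spread between these libraries, which may be technical.

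Total counts were 20042519 to 47972092 per library, and no 2 groups share a batch label, which means that batch and group cannot be told apart. Of the 9 renal and ccRCC markers, 8 were detected in every group, and CA9 had at most 3 counts in every library of parental 786-O, resistant 786-O and resistant A498. The summed level of these markers was 8845 to 9321 CPM in parental 786-O, 5820 to 6266 in resistant 786-O, 6281 to 6318 in parental A498 and 4621 to 4766 in resistant A498. The 13 markers of other cells summed to 2.53 to 4.69 CPM in parental 786-O, resistant 786-O and resistant A498 and to 51.6 to 63.1 CPM in parental A498, where COL1A1 held 55.4 ± 5.88 CPM (SD, n = 3). The immune and endothelial markers PTPRC, CD3D, CD3E, MS4A1 and CDH5 had at most 3 counts in every library, and the part of these markers in the results below was not tested. The libraries labelled as resistant A498 stood nearer to the other cell line than to their own parent. In log2 CPM across genes, which are not independent replicates, their median Pearson r was 0.982 with resistant 786-O and 0.951 with parental 786-O, but 0.870 with parental A498, where parental 786-O and parental A498 themselves had 0.868. The change of each member in resistant A498 is therefore given against parental A498, its labelled parent, and against parental 786-O. Several genes outside the members are given against parental A498 only. In those values, a difference between the cell lines and a change with selection cannot be told apart. Replicate 2 of resistant 786-O stood apart from its group, with a chi-square per gene of 44.3 and 44.7 against the other 2 libraries, where pairs of all groups without it had 1.55 to 7.32. No pair of libraries within a group agreed within sampling noise. Scaling by library size alone in place of the TMM method would shift the median log2 change of all genes from 0.03 to 0.18 in resistant 786-O against parental 786-O and from 0.00 to 0.15 in resistant A498 against parental 786-O, and removing each library's trend with GC content and exon length would shift it to -0.12 and -0.13. The share of calls that were higher was 51.1% and 49.6% with TMM, 62.5% and 62.6% with library size and 38.6% and 38.5% with the trend removed. Removing the trend also moved the median in parental 786-O against parental A498 from 0.04 to 0.20 and the share of higher calls from 51.4% to 60.2%. Directions are given relative to the TMM scaling.

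The serine synthesis pathway branches from glycolysis. PHGDH oxidises 3-phosphoglycerate, PSAT1 transaminates its product with glutamate, and PSPH removes the phosphate to release serine. SHMT1 in the cytosol and SHMT2 in mitochondria split serine into glycine and a one-carbon unit carried by tetrahydrofolate, which MTHFD2, MTHFD2L and MTHFD1L carry on to formate in mitochondria and MTHFD1 takes up in the cytosol for the synthesis of purines and thymidylate. ALDH1L2 oxidises the mitochondrial formyl unit to CO2 and makes NADPH. ATF4, the transcription factor of the amino acid response, is known to induce several of these genes in many cell types.

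Promoter sequences are shown for 2 members. PSAT1 is shown because its promoter window was rich in CpG sites, with 30, although the 4 windows of MTHFD1L held 31, 32, 33 and 5. MTHFD1L is shown because it alone held a match to the amino acid response motif TGATGNAA, which was searched on both strands. The RefSeq windows of 250 bases before each start site were available for 7 of the 10 members, and PSPH, SHMT2 and ALDH1L2 had no entry. Such a match was present in 1104 of 35116 windows (3.14%), or in a window of 1061 of 27305 genes (3.89%), and in 1 of the 7 members, which has 4 windows. In the first line below, capitals mark the 30 CpG sites before the start of PSAT1 on chromosome 9 (chr9:78296875-78297124, plus strand, GRCh38.p14), at 65.6% GC, where the median over all windows was 11 CpG sites. In the second, capitals mark the motif in the windows of MTHFD1L on chromosome 6 (chr6:150866346-150866375, plus strand, GRCh38.p14), at -90 and -129 from 2 of its 4 RefSeq start sites. This stretch lies inside the annotated bounds of the gene, which begin at 150865679.
PSAT1: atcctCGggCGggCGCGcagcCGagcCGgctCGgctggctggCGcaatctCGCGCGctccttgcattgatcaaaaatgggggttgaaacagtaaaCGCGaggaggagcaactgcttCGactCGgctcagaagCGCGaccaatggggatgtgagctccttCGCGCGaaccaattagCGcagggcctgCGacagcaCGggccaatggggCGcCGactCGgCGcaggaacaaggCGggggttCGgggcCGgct
MTHFD1L: gccgccggctcTGATGCAAtcgcgccgggc
A match is a description of these letters only, and the windows without one say nothing of any factor.

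PHGDH, on chromosome 1 (119648411 to 119744218, plus strand, GRCh38), set the lines apart by more than any other member. Its counts were 7, 9 and 8 in parental 786-O, 48, 20 and 44 in resistant 786-O, 13538, 7970 and 10364 in parental A498, and 40, 36 and 26 in resistant A498. These counts correspond to 0.184, 0.233 and 0.177 CPM in parental 786-O and 0.980, 0.458 and 0.962 CPM in resistant 786-O. In parental A498 the libraries had 392, 370.5 and 381 CPM and in resistant A498 1.49, 1.72 and 1.02 CPM. The transcript was abundant in parental A498 and close to the limit of detection in the other 3 groups, whose libraries did not overlap with each other. The level in resistant A498 was 0.370% of that in parental A498 (log2 change -8.09 ± 0.13, SE; edgeR quasi-likelihood test, adjusted p = 4.3e-16). Against parental 786-O it was 6.96-fold higher in resistant A498 at this low level (log2 change 2.80 ± 0.32, adjusted p = 2.4e-06). In resistant 786-O, PHGDH rose over parental 786-O (log2 change 2.02 ± 0.33, adjusted p = 6.4e-05), and the rise was 2.28 without resistant 786-O replicate 2, the lowest library of that group. The smallest rise over all alternatives of processing was 1.73. An unequal-variance test of raw counts, the study's own test, did not call it (unadjusted p = 0.078). The parental lines differed by -10.89 ± 0.16 (parental 786-O minus parental A498, adjusted p = 1.0e-16). In bulk RNA, fewer cells with the transcript and less of it in each cell cannot be told apart, here and for every gene below.

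PSAT1, on chromosome 9 (78297125 to 78330093, plus strand), was abundant in all groups. It had 229, 228 and 228 CPM in parental 786-O, 351, 278 and 329 in resistant 786-O, 472, 445 and 438 in parental A498, and 509, 471 and 487 in resistant A498. The order was parental 786-O, resistant 786-O, parental A498 and resistant A498, and only the last pair overlapped. PSAT1 rose in resistant 786-O over parental 786-O (log2 change 0.49 ± 0.07, adjusted p = 1.4e-05) and was higher in resistant A498 than in parental 786-O (1.10 ± 0.07, adjusted p = 2.6e-09). Against parental A498 the change was 0.11 ± 0.07 and did not pass the threshold (adjusted p = 0.14), which it did without resistant 786-O replicate 1 or replicate 2 (adjusted p = 0.031 and 0.0035), with library size scaling (0.18, adjusted p = 0.028), with all genes kept (0.16, adjusted p = 0.023) and in a fit of only these groups (0.11, adjusted p = 0.0080). The parental lines differed in the same direction as for PHGDH, but by far less (parental 786-O minus parental A498, -0.98 ± 0.07, adjusted p = 3.3e-09).

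PSPH, on chromosome 7 (56011051 to 56051604, minus strand), had 46.4, 45.1 and 45.2 CPM in parental 786-O, 71.1, 59.7 and 67.8 in resistant 786-O, 186, 185 and 178 in parental A498, and 103, 100.5 and 102 in resistant A498. The groups did not overlap. PSPH rose in resistant 786-O (log2 change 0.54 ± 0.06, adjusted p = 7.6e-07). In resistant A498 it lay between the parental lines, lower than in parental A498 (-0.85 ± 0.06, adjusted p = 2.6e-09) and higher than in parental 786-O (1.16 ± 0.06, adjusted p = 2.3e-10). Comparisons of resistant 786-O and of resistant A498 with parental 786-O share the parental 786-O libraries, here and below, and their values stand side by side without a count of shared directions.

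**Figure D1:**
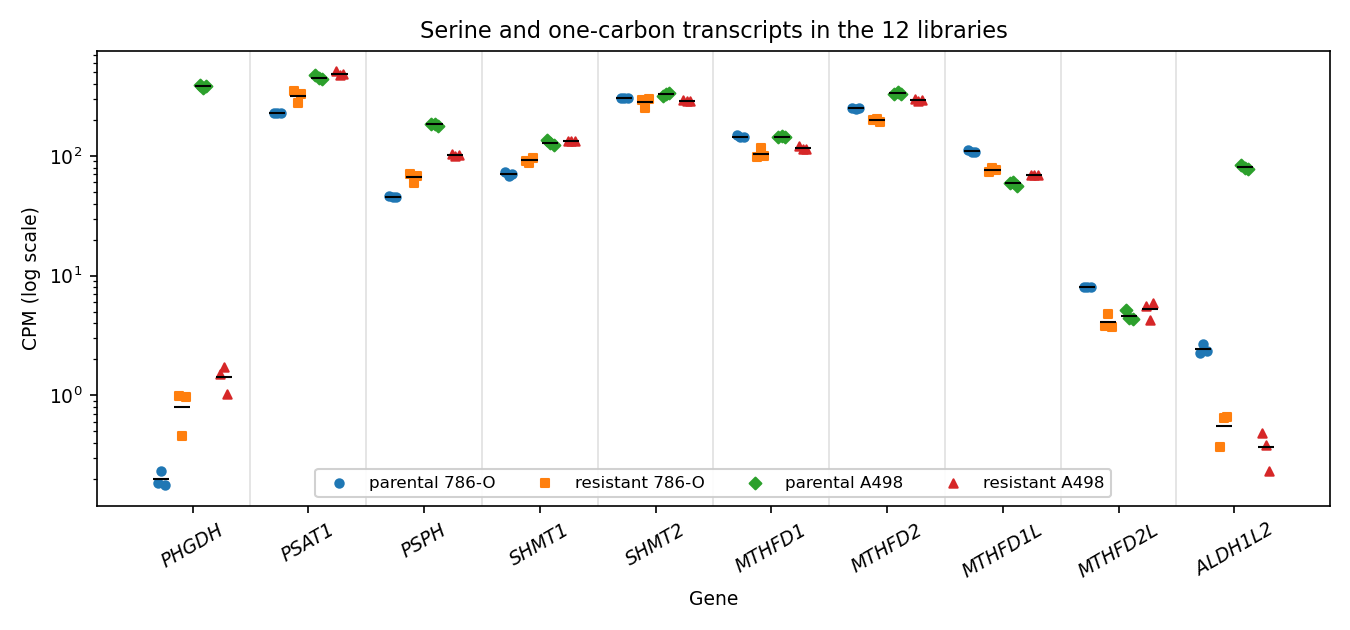
CPM of the 10 members (x axis) in each of the 12 libraries on a log scale (y axis), with a symbol and colour for each group and a black bar at the mean of its 3 libraries. PHGDH and ALDH1L2 stand at 370.5 to 392 and 78.4 to 83.2 CPM in parental A498 and under 3 CPM in the other groups, while the other 8 members vary far less.

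SHMT1 and SHMT2, the cytosolic and the mitochondrial serine hydroxymethyltransferase, had different patterns. SHMT1, on chromosome 17 (18327860 to 18363563, minus strand), had 73.0, 68.2 and 71.3 CPM in parental 786-O, 91.0, 88.1 and 96.5 in resistant 786-O, 136, 128 and 123 in parental A498, and 134, 132 and 133 in resistant A498. It rose in resistant 786-O (log2 change 0.38 ± 0.05, adjusted p = 9.7e-06) and was higher in resistant A498 than in parental 786-O (0.91 ± 0.05, adjusted p = 8.6e-10). With the trend in GC content and length removed, the rise in resistant 786-O was 0.13 (adjusted p = 0.024). The libraries of resistant A498 overlapped with those of parental A498 and differed from them by 0.04 ± 0.05 (adjusted p = 0.45), and with that trend removed by 0.21, which was called (adjusted p = 0.00074). SHMT2, on chromosome 12 (57229573 to 57234935, plus strand), had 305, 304 and 304 CPM in parental 786-O, 291, 253 and 298 in resistant 786-O, 319, 328 and 334 in parental A498, and 296, 286 and 286 in resistant A498. Its highest group exceeded its lowest by 1.16-fold, the narrowest range of the 10 members. The change was -0.12 ± 0.05 in resistant 786-O (adjusted p = 0.065) and -0.07 ± 0.05 in resistant A498 against parental 786-O (adjusted p = 0.26), neither of which passed the threshold, although it passed in resistant 786-O without resistant 786-O replicate 3 (adjusted p = 0.034) and in resistant A498 against parental 786-O without resistant 786-O replicate 2 (adjusted p = 0.047). With the trend in GC content and length removed, both were called lower, at -0.45 (adjusted p = 2.6e-06) and -0.21 (adjusted p = 0.0027), while library size scaling turned them to 0.03 and 0.08 (adjusted p = 0.69 and 0.24). Against parental A498, SHMT2 was lower in resistant A498 (-0.17 ± 0.05, adjusted p = 0.0094). That call was lost without resistant A498 replicate 2 (adjusted p = 0.082) or replicate 3 (0.078). It was also lost with library size scaling (-0.11, adjusted p = 0.10) and with all genes kept (-0.13, adjusted p = 0.068). The direction turned to 0.17 when the trend with GC content and length was removed (adjusted p = 0.011).

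The balance between the cytosolic and the mitochondrial transcript differed between groups. Per kilobase of transcript, the level of SHMT2 over that of SHMT1 was 5.04 ± 0.16 in parental 786-O (SD, n = 3), 3.58 ± 0.20 in resistant 786-O, 2.97 ± 0.22 in parental A498 and 2.55 ± 0.03 in resistant A498. The ratio did not overlap between any pair of groups compared, and the exact permutation test over libraries gave p = 0.10 for each (two-sided), the smallest that 3 against 3 libraries allow.

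Among the MTHFD enzymes, all 4 fell in resistant 786-O. MTHFD1, the cytosolic enzyme with 3 activities, on chromosome 14 (64388031 to 64463457, plus strand), had 148, 143 and 143 CPM in parental 786-O, 97.5, 116 and 99.5 in resistant 786-O, 145, 147 and 144 in parental A498, and 121, 115 and 114 in resistant A498. The parental lines overlapped, and each resistant line lay below its labelled parent (log2 change -0.47 ± 0.06, adjusted p = 4.3e-06, in resistant 786-O and -0.31 ± 0.06, adjusted p = 0.00021, in resistant A498). Against parental 786-O, the change in resistant A498 was also -0.31 ± 0.06 (adjusted p = 0.00031).

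MTHFD2, the mitochondrial dehydrogenase and cyclohydrolase that is raised in many tumours, on chromosome 2 (74186172 to 74217565, plus strand), had 252, 247 and 251 CPM in parental 786-O, 199.7, 204 and 191 in resistant 786-O, 333, 342 and 329 in parental A498, and 297, 289 and 294 in resistant A498. None of the groups overlapped. MTHFD2 fell in resistant 786-O by 0.34 ± 0.04 on the log2 scale (adjusted p = 2.8e-06) and in resistant A498 against parental A498 by 0.19 ± 0.04 (adjusted p = 0.00054). Against parental 786-O it was higher in resistant A498 (0.23 ± 0.04, adjusted p = 0.00013), a direction that turned to -0.05 with the trend in GC content and length removed (adjusted p = 0.33).

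MTHFD1L, the mitochondrial formate-releasing enzyme, on chromosome 6 (150865679 to 151101887, plus strand), had 113, 107 and 108 CPM in parental 786-O, 72.8, 79.1 and 76.6 in resistant 786-O, 59.9, 60.8 and 55.9 in parental A498, and 69.1, 68.9 and 68.7 in resistant A498. It was highest in parental 786-O, and the groups did not overlap. MTHFD1L fell in resistant 786-O (log2 change -0.53 ± 0.05, adjusted p = 1.5e-07) and rose in resistant A498 over parental A498 (0.23 ± 0.05, adjusted p = 0.00072), while it was lower there than in parental 786-O (-0.67 ± 0.05, adjusted p = 1.5e-08). MTHFD2L, the scarcer relative of MTHFD2, on chromosome 4 (74114174 to 74303099, plus strand), had 7.995, 8.02 and 8.10 CPM in parental 786-O, 3.78, 4.81 and 3.70 in resistant 786-O, 5.15, 4.42 and 4.30 in parental A498, and 5.55, 4.26 and 5.91 in resistant A498. In parental 786-O it stood above the other groups, and it fell in resistant 786-O (-0.97 ± 0.12, adjusted p = 5.9e-06). Against parental A498 it did not pass the threshold in resistant A498 (0.18 ± 0.14, adjusted p = 0.26, and -0.023 with the trend in GC content and length removed), where the libraries overlapped, but did without resistant A498 replicate 2 (adjusted p = 0.045). Against parental 786-O it was lower in resistant A498 (-0.61 ± 0.13, adjusted p = 0.00078).

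Per kilobase of transcript, the level of MTHFD2 over that of MTHFD1 was 1.24 ± 0.02 in parental 786-O, 1.37 ± 0.10 in resistant 786-O, 1.65 ± 0.02 in parental A498 and 1.80 ± 0.04 in resistant A498, with no overlap between compared groups (exact permutation p = 0.10, two-sided, for each). The level of MTHFD1L over that of MTHFD1 was 0.693 ± 0.005 in parental 786-O and 0.669 ± 0.043 in resistant 786-O, which overlapped (exact permutation p = 0.60), and 0.370 ± 0.013 in parental A498 and 0.539 ± 0.014 in resistant A498, which did not (p = 0.10). PSAT1 over PSPH was 4.48 ± 0.06 in parental 786-O, 4.31 ± 0.13 in resistant 786-O and 4.29 ± 0.11 in resistant A498, but 2.20 ± 0.06 in parental A498. The first 2 of these overlapped (exact permutation p = 0.20). In that ratio the resistant A498 libraries overlapped with those of resistant 786-O (exact permutation p = 0.90) and not with those of parental A498.

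**Figure D2:**
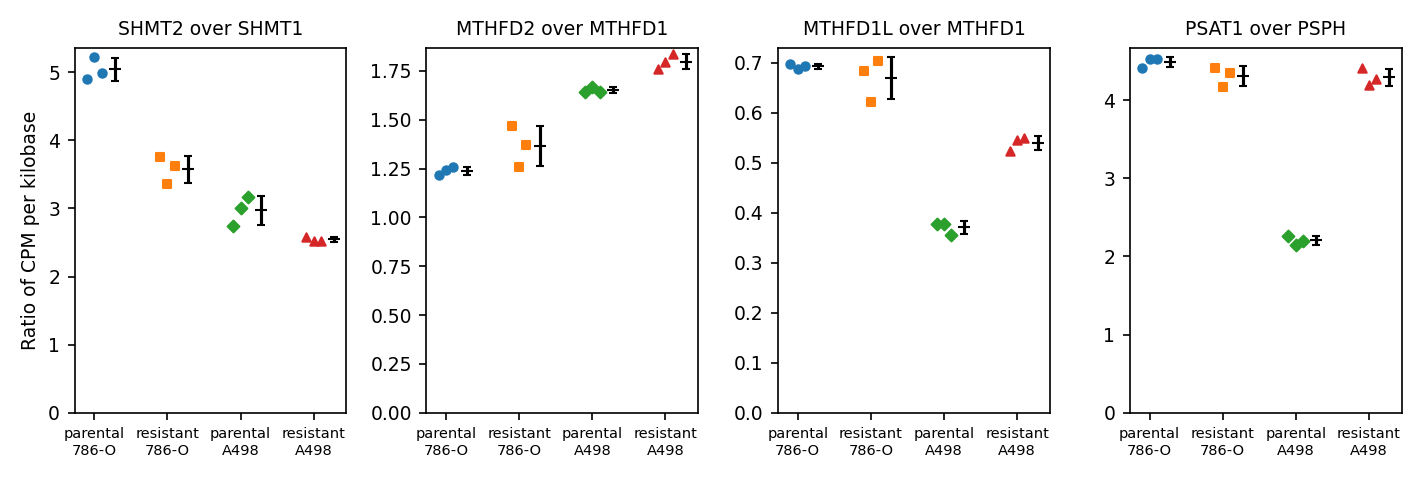
Ratios of levels per kilobase of transcript (y axes, starting at 0) for 4 pairs of members in the 4 groups (x axes). Points are libraries and the bars beside them show mean ± SD of 3. SHMT2 over SHMT1 is lowest in resistant A498 at 2.55 and highest in parental 786-O at 5.04, and PSAT1 over PSPH stands apart in parental A498 at 2.20.

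ALDH1L2, the mitochondrial formyltetrahydrofolate dehydrogenase, on chromosome 12 (105019784 to 105107643, minus strand), was the other member with a wide range. Its counts were 86, 103 and 105 in parental 786-O, 18, 28 and 30 in resistant 786-O, 2874, 1704 and 2130 in parental A498, and 13, 8 and 6 in resistant A498. In CPM this was 2.26, 2.66 and 2.33 in parental 786-O, 0.368, 0.641 and 0.656 in resistant 786-O, 83.2, 79.2 and 78.4 in parental A498, and 0.485, 0.383 and 0.235 in resistant A498. As for PHGDH, parental A498 stood far above the other groups, but here both resistant groups lay below parental 786-O. ALDH1L2 fell in resistant 786-O (log2 change -2.13 ± 0.17, adjusted p = 4.2e-08). In resistant A498 it fell by 7.75 ± 0.15 against parental A498 (adjusted p = 2.6e-15) and by 2.70 ± 0.22 against parental 786-O (adjusted p = 6.4e-08). ALDH1L1, the cytosolic enzyme of the same reaction, which was singled out after its values were seen, was higher in both resistant groups than in both parental ones. It had at most 2 counts in every library of both parental lines, 2.27 ± 0.74 CPM (SD, n = 3) in resistant 786-O and 1.27 ± 0.15 CPM in resistant A498. From summed counts of 311 and 4, the ratio of resistant 786-O to parental 786-O was 68.4 (95% exact binomial interval 26.5 to 253), and from 93 and 4 that of resistant A498 to parental A498 was 26.4 (9.97 to 98.9) and to parental 786-O 38.6 (14.6 to 145). These intervals cover counting error only.

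Counted together, 4 members rose, 5 fell and 1 did not pass the threshold in resistant 786-O against parental 786-O, where 68.5% of all genes tested were called (35.0% higher and 33.5% lower). The libraries of the groups did not overlap for all 10 members and for 68.9% of all genes. The median log2 change of the members was -0.23 against 0.03 for all genes. The members that rose were the 3 enzymes of serine synthesis and SHMT1, and those that fell were the 4 MTHFD enzymes and ALDH1L2. Of these, PHGDH rose only from 0.198 to 0.800 CPM, close to the limit of detection, and the study's own test did not call it. In resistant A498 against parental A498, 1 rose, 6 fell and 3 were not called, where 72.7% of all genes were called (36.3% higher and 36.4% lower). The members' libraries did not overlap for 7, against 78.5% of all genes, and their median change was -0.18 against -0.00. The single member that rose was MTHFD1L.

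In resistant A498 against parental 786-O, 5 members were higher, 4 lower and 1 not called, where 63.6% of all genes were called (31.6% higher and 32.1% lower). The libraries did not overlap for all 10 members against 73.4% of all genes, and the median was 0.08 against 0.00. With the trend in GC content and length removed, 4 members were higher and 5 lower, with a median of -0.13. In parental 786-O against parental A498, 2 were higher (MTHFD1L and MTHFD2L), 6 lower and 2 not called, where 74.2% of all genes were called (38.2% higher and 36.1% lower). The libraries did not overlap for 9 members against 80.2% of all genes, and the median was -0.64 against 0.04. A log2 change over 1 as well was met by PHGDH and ALDH1L2 in both resistant 786-O against parental 786-O, where 22.0% of all genes met it, and resistant A498 against parental A498 (30.8%). It was met by 4 members in resistant A498 against parental 786-O (20.0%), where PSAT1 and PSPH joined them, and by 3 in parental 786-O against parental A498 (31.9%), where PSPH did. The change in resistant A498 against parental A498 differed from that in resistant 786-O against parental 786-O for 8 members, above 0 for 3 and below 0 for 5, where 68.3% of all genes differed (33.9% above and 34.4% below), and by over 1 for 4 members and 35.1% of all genes. With the trend in GC content and length removed, 3 members were above 0 and 4 below, the members' median turned from -0.19 to 0.09, and 60.7% of the calls of all genes were above 0.

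**Figure D3:**
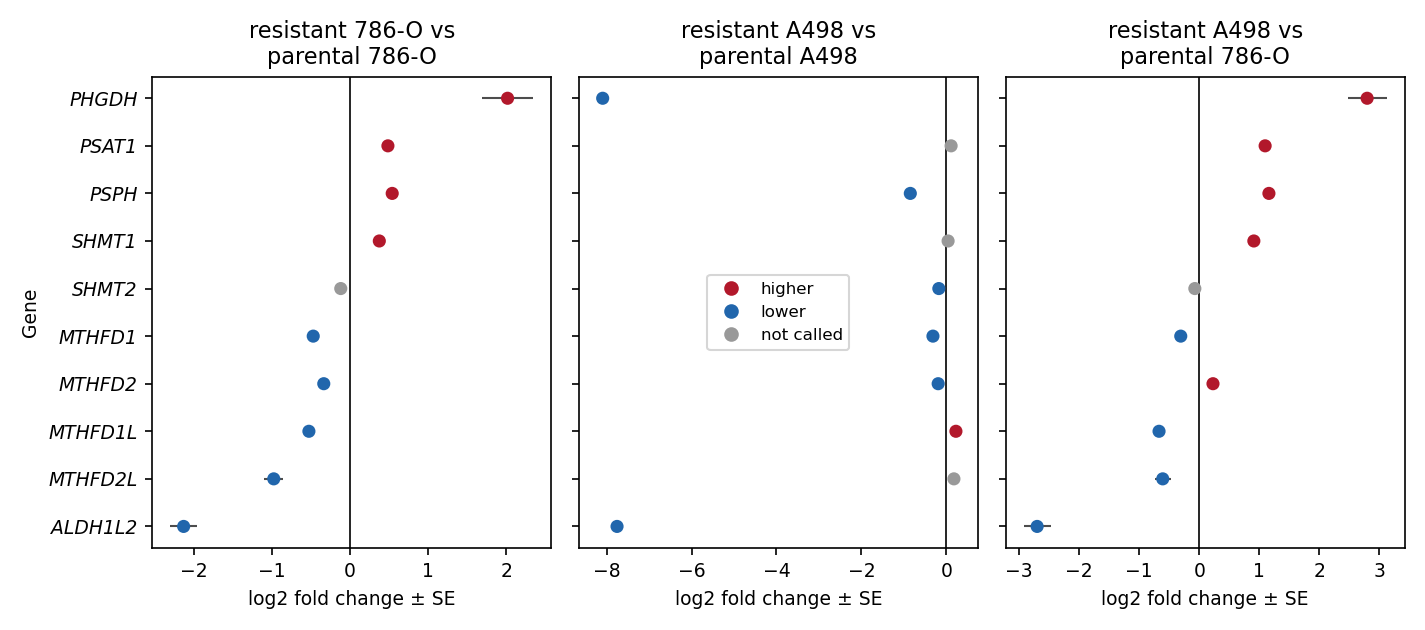
Log2 fold change ± SE (x axes, each with its own range) of the 10 members (y axis) in 3 comparisons, with red for a member called higher, blue for lower and grey for not called. In resistant 786-O against parental 786-O, the serine synthesis enzymes and SHMT1 lie to the right of 0 and ALDH1L2 to the left. PHGDH was close to the limit of detection in both groups. The comparison of resistant A498 with parental 786-O uses the same parental libraries and is not independent of it. In resistant A498 against parental A498, the values of PHGDH (-8.09) and ALDH1L2 (-7.75) exceed all others in size.

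Between the resistant lines, 7 members were higher in resistant A498 than in resistant 786-O, 1 was lower and 2 were not called, where 46.1% of all genes were called (23.0% higher and 23.0% lower). The libraries did not overlap for 6 members and 51.7% of all genes, the members' median was 0.45 against -0.03, and 0 members differed by over 1, as 7.30% of all genes did. PSAT1 (0.61 ± 0.07), PSPH (0.62 ± 0.06), SHMT1 (0.54 ± 0.05) and MTHFD2 (0.56 ± 0.04) were higher with adjusted p of 4.8e-06, 8.3e-07, 1.1e-06 and 1.0e-07. The other 4 calls were less firm. PHGDH (0.78 ± 0.24, adjusted p = 0.014) lost its call without resistant A498 replicate 1 (0.058) or replicate 2 (0.068), and in a fit of only these groups, in which 4 members were called (adjusted p = 0.078). MTHFD1 (0.16 ± 0.06, adjusted p = 0.035) lost its call without any 1 of the 3 resistant A498 libraries or without resistant 786-O replicate 1 or 3, with adjusted p up to 0.12. MTHFD1L (-0.14 ± 0.05, adjusted p = 0.024) lost it without any 1 of the resistant A498 libraries or resistant 786-O replicate 3, with adjusted p up to 0.091. MTHFD2L (0.37 ± 0.14, adjusted p = 0.037) lost it without resistant A498 replicate 1 or 3, resistant 786-O replicate 1 or 3, or parental 786-O replicate 2 or 3, with adjusted p up to 0.17. With the trend in GC content and length removed, MTHFD1 (0.07, adjusted p = 0.47), MTHFD1L (-0.10, adjusted p = 0.085) and MTHFD2L (0.06, adjusted p = 0.77) also lost their calls. The fit of only these groups did not call them either (adjusted p = 0.13, 0.067 and 0.11). ALDH1L2 was not called (-0.57 ± 0.29, adjusted p = 0.13), but was without resistant 786-O replicate 1 (adjusted p = 0.032).

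Within each group, members were ordered by CPM per kilobase of their canonical transcript. In parental 786-O the order ran from SHMT2 (141 ± 0.391, SD, n = 3) and PSAT1 (103 ± 0.187) through MTHFD2, MTHFD1, MTHFD1L, SHMT1, PSPH and MTHFD2L to ALDH1L2 (0.326 ± 0.029) and PHGDH (0.106 ± 0.016). In resistant 786-O PSAT1 (145 ± 16.9) and SHMT2 (130.1 ± 11.4) led with overlapping libraries, and SHMT1, PSPH and MTHFD1, at 36.3, 33.5 and 33.1, could not be ordered beyond their spread. In parental A498 PSAT1 (205 ± 8.03) and PHGDH (204 ± 5.75) were level and stood above SHMT2 (152 ± 3.45), so that the first 2 enzymes of serine synthesis were its most abundant members. In resistant A498 PSAT1 (222 ± 8.65) led and PHGDH (0.756 ± 0.193) was 9th of 10, as it was in resistant 786-O. ALDH1L2 was 10th in both resistant groups.

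PHGDH was compared with 10067 genes of at least 10 CPM on average over the libraries by the pattern of the 4 group means on the log2 scale, each centred on its own mean. The 3 nearest were FBLN1, with a root mean square difference of 0.26, AKR1C1 with 0.47 and PPP2R2C with 0.48. FBLN1 had 381 CPM in parental A498 and 0.306, 0.749 and 1.11 CPM in parental 786-O, resistant 786-O and resistant A498. These levels are close to those of PHGDH, as the search selects for. The 3 genes lie on chromosomes 22, 10 and 4, and they reached 10 CPM on average only through parental A498. The likeness rests on 4 group means, with a pseudocount of 0.1 CPM. PPP2R2C had only 0.024 CPM in parental 786-O and 0.198 CPM in resistant A498. The genes next to PHGDH, which were looked at after its values were seen, did not share its pattern. The annotated bounds of ZNF697 lie 0.145 kb from those of PHGDH. The latter begin at 119648411, while the window before the RefSeq start of PHGDH ends at 119711933. ZNF697 had 39.996 ± 0.690 CPM in parental 786-O, 32.7 ± 1.10 in resistant 786-O, 10.5 ± 0.145 in parental A498 and 35.3 ± 1.41 in resistant A498. It was lowest where PHGDH was highest (parental 786-O minus parental A498, log2 difference 1.93, adjusted p = 1.5e-13). NOTCH2, 167 kb away, had 373 ± 27.9, 583 ± 26.2, 360 ± 14.0 and 523 ± 17.1 CPM in the same order and did not pass the threshold between the parental lines (0.05, adjusted p = 0.40). NOTCH2 and SEC22B have near-identical copies with which reads may be shared. Around ALDH1L2, whose bounds overlap those of NOPCHAP1 and WASHC4, NOPCHAP1 had 23.9, 11.2, 15.95 and 9.11 CPM in the same order of groups and WASHC4 had 73.9, 73.2, 55.9 and 129 CPM. CHST11, 258 kb away, had 109, 82.3, 190 and 59.1 CPM, which ranks the groups as ALDH1L2 does, over a narrower range. The other tested genes within 500 kb, SLC41A2, APPL2 and C12orf75, had 21.7, 21.8 and 130 CPM in parental A498. In parental 786-O they had more, at 44.1, 39.6 and 222 CPM. Pseudogenes of the members held at most 29 counts in any library.

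**Figure D4:**
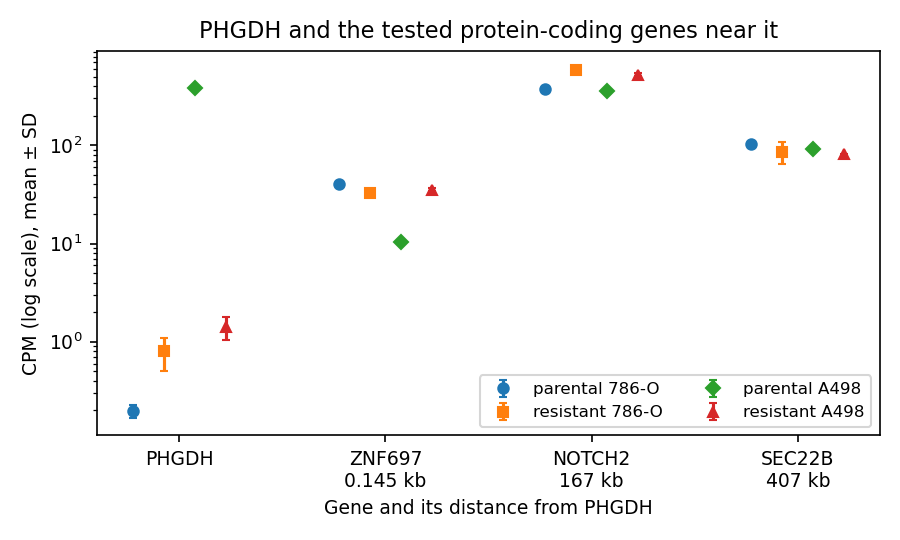
CPM on a log scale (y axis, mean ± SD, n = 3) of PHGDH and of the 3 tested protein-coding genes within 500 kb of it (x axis, with the distance in kb) in the 4 groups. PHGDH spans 0.198 to 381 CPM between groups, whereas ZNF697 spans 10.5 to 39.996.

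The wider pathway was described through lists that were written with earlier results of these data known. The first list held 7 enzymes of thymidylate and purine synthesis, not all of which use a one-carbon unit themselves. Of these, 0 rose, 6 fell and 1 was not called (ATIC, -0.17 ± 0.08, adjusted p = 0.080) in resistant 786-O, where 33.5% of all genes fell. The median log2 change was -0.70 against 0.03 for all genes. In resistant A498 against parental 786-O, 0 were higher and 7 lower, where 32.1% of all genes were lower, with a median of -0.53 against 0.00. Against parental A498, 3 were higher and 2 lower in resistant A498 (median 0.13, and -0.05 with the GC and length trend removed), where 36.3% and 36.4% of all genes were. Between the parental lines, 5 of 7 were higher in parental 786-O than in parental A498 (median 0.83), where 38.2% of all genes were. PAICS, which acts in the middle of purine synthesis, had 539 ± 4.54 CPM in parental 786-O, 227 ± 19.03 in resistant 786-O, 252 ± 9.73 in parental A498 and 279 ± 9.92 in resistant A498 (log2 change -1.25 ± 0.06, adjusted p = 7.8e-11, in resistant 786-O). TYMS, the thymidylate synthase, fell in resistant 786-O (-0.70 ± 0.05, adjusted p = 4.0e-09) and was lower in resistant A498 than in parental 786-O (-0.53 ± 0.05, adjusted p = 9.6e-08) but higher than in parental A498 (0.30 ± 0.05, adjusted p = 2.6e-05). PPAT, the first enzyme of purine synthesis, rose in resistant A498 over parental A498 (0.81 ± 0.07, adjusted p = 3.3e-08) and fell in resistant 786-O (-0.66 ± 0.06, adjusted p = 2.7e-07). In resistant 786-O the direction of this list was the same with library size scaling, DESeq2 size factors, the trend in GC content and length removed, and without resistant 786-O replicate 2, with 6 or 7 genes lower and 0 higher.

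Of 9 folate cofactor enzymes, 6 rose and 1 fell in resistant 786-O (median 0.26), 5 rose and 3 fell in resistant A498 against parental A498 (0.46), and 4 were higher and 2 lower against parental 786-O (0.02, and -0.05 with the GC and length trend removed). Over all genes tested, 35.0% rose and 33.5% fell in resistant 786-O. In resistant A498 the shares were 36.3% and 36.4% against parental A498 and 31.6% and 32.1% against parental 786-O. These shares apply to the counts of this list and of the lists below. The list includes ALDH1L1 and FTCD, both at or under the floor of 3 counts in parental 786-O, and its medians did not change with these genes set at that floor.

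Of 9 folate and serine transporters, 8 were tested. Of these, 4 rose and 3 fell in resistant 786-O (median 0.16), 6 rose and 1 fell in resistant A498 against parental A498 (0.54), and 3 were higher and 3 lower against parental 786-O (0.11). With the trend in GC content and length removed, 2 rose and 3 fell in resistant 786-O, and the median against parental 786-O in resistant A498 turned to -0.10. SFXN1, which carries serine into mitochondria, fell in resistant 786-O (-0.54 ± 0.05, adjusted p = 2.2e-07) and was higher in resistant A498 than in parental A498 (0.42 ± 0.05, adjusted p = 3.0e-06). Its relative SFXN2 fell in resistant 786-O (-1.28 ± 0.11, adjusted p = 6.1e-08). SLC25A32, the mitochondrial folate carrier, had 7.66 ± 0.413 CPM in parental 786-O and 7.73 ± 0.797 in resistant 786-O and was not called there (adjusted p = 0.94). FOLR1, a folate receptor, had 2 to 3 counts per library in parental A498 and 5.11 ± 0.393 CPM in resistant A498, a ratio of 53.0 from summed counts (95% exact binomial interval 26.6 to 124), and 4.61 ± 0.581 CPM in parental 786-O.

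Of 11 genes of glycine cleavage and serine or glycine breakdown, 10 were tested. Of these, 3 rose and 4 fell in resistant 786-O (median -0.28), 3 rose and 5 fell in resistant A498 against parental A498 (-0.16), and 2 were higher and 4 lower against parental 786-O (-0.18). SARDH, the sarcosine dehydrogenase, which feeds one-carbon units into mitochondrial folate, had 0.634 ± 0.154 CPM in parental 786-O and 10.3 ± 3.74 in resistant 786-O (log2 change 4.02 ± 0.28, adjusted p = 9.7e-09). It had 26.9 ± 0.825 CPM in resistant A498 and 1 count in all 3 libraries of parental A498 together, from which the ratio has a 95% interval of 401 to 88421. GLDC, the glycine decarboxylase, fell in resistant 786-O (-0.62 ± 0.11, adjusted p = 0.00016). It was higher in resistant A498 than in parental A498 (2.36 ± 0.15, adjusted p = 1.2e-09) and differed from parental 786-O by 0.04 ± 0.11 (adjusted p = 0.78).

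Of 13 genes of the methionine cycle and transsulfuration, 12 were tested. Of these, 5 rose and 6 fell in resistant 786-O (median 0.13, and -0.01 with the GC and length trend removed), 8 rose and 3 fell in resistant A498 against parental A498 (0.39), and 6 were higher and 4 lower against parental 786-O (0.30). CBS, which joins homocysteine to serine, had 1.92 ± 0.068 CPM in parental 786-O and 5.69 ± 1.01 in resistant 786-O (1.57 ± 0.14, adjusted p = 1.7e-07). AHCYL1, a relative of the adenosylhomocysteinase, fell in resistant A498 against parental A498 (-1.40 ± 0.06, adjusted p = 2.9e-11) and in resistant 786-O (-0.90 ± 0.06, adjusted p = 7.7e-09).

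ATF4 transcript had 519 ± 10.3 CPM in parental 786-O and 397 ± 26.0 in resistant 786-O and fell (-0.39 ± 0.05, adjusted p = 3.9e-06). It rose in resistant A498 over parental A498 (0.14 ± 0.05, adjusted p = 0.015). A transcript level does not measure the activity of ATF4, and its part in the changes of the members was not tested. Of 10 regulators and ATF4 targets outside the pathway, 6 rose and 3 fell in resistant 786-O (median 0.35), 3 rose and 5 fell in resistant A498 against parental A498 (-0.11), and 8 were higher and 1 lower against parental 786-O (0.54). With the trend in GC content and length removed, 3 rose and 4 fell in resistant 786-O (median -0.09), 6 rose and 3 fell against parental A498 (0.33) and 7 were higher and 3 lower against parental 786-O (0.35). CHAC1, which degrades glutathione, rose in resistant 786-O (1.13 ± 0.09, adjusted p = 2.6e-08). ASNS, the asparagine synthetase, rose in resistant 786-O (0.97 ± 0.25, adjusted p = 0.0030) from 0.522 ± 0.198 to 1.02 ± 0.223 CPM and fell in resistant A498 against parental A498 (-1.44 ± 0.21, adjusted p = 2.2e-05). CEBPB, a transcription factor that pairs with ATF4, fell in resistant A498 against parental A498 (-1.03 ± 0.06, adjusted p = 1.4e-09) and rose in resistant 786-O (0.65 ± 0.06, adjusted p = 4.2e-07), where the direction turned to -0.07 with the GC and length trend removed.

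**Figure D5:**
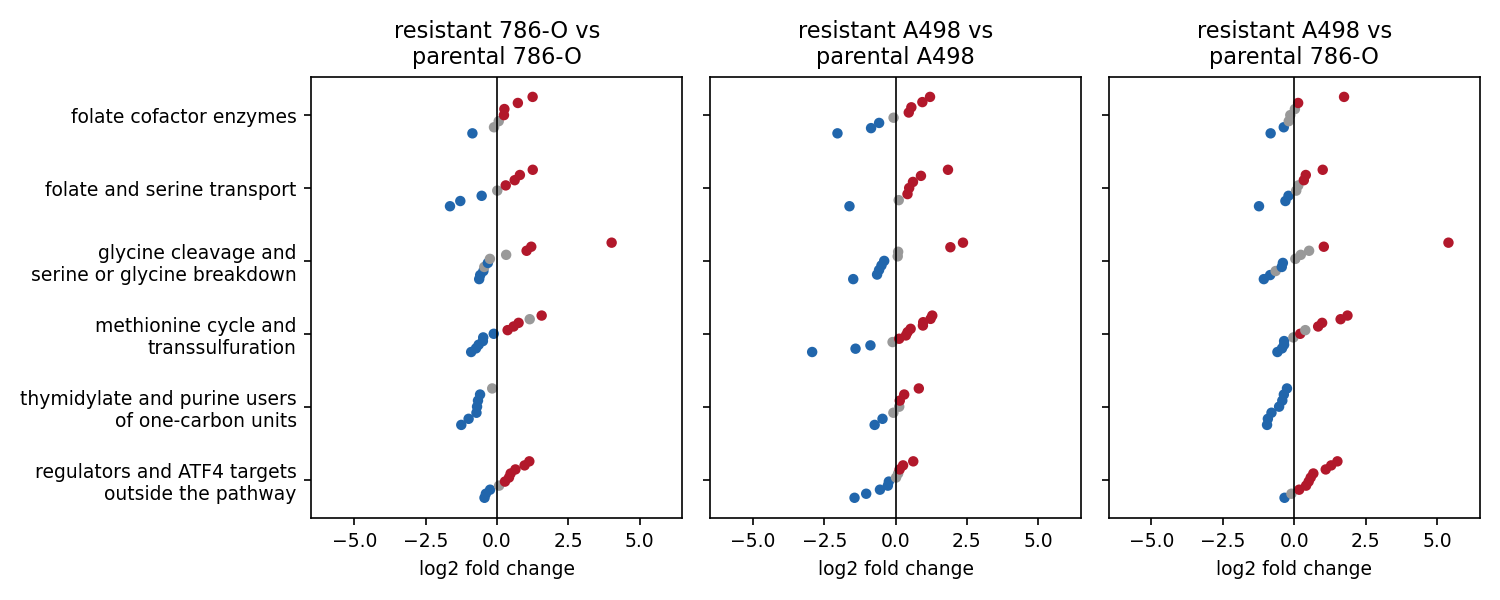
Log2 fold change (x axes) of the tested genes of 6 lists (y axis) in 3 comparisons, with red for called higher, blue for lower and grey for not called. Genes with at most 3 counts in every library of a compared group are left out. The thymidylate and purine list has a median of -0.70 in resistant 786-O and of -0.53 in resistant A498 against parental 786-O, whose libraries these comparisons share. In resistant A498 against parental A498 its median is 0.13.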

How the data were processed

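Gene counts of 12 mRNA libraries, 3 from each of 4 groups of cells, were re-analysed. The authors trimmed paired reads of stranded mRNA libraries with Trimmomatic 0.36.6, aligned them to GRCh38 with HISAT2 2.1.0, counted them on exons of GENCODE genes with featureCounts 1.6.3 in a strand-specific setting, and deposited raw counts without normalization. Libraries were grouped by their labels. Total counts of 20042519 to 47972092 set the precision, with exact binomial intervals at 95% only where a group had at most 3 counts per library.

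In R 4.3.3, edgeR 4.0.16 filtered genes with filterByExpr, leaving 19929, and scaled by TMM. A quasi-likelihood model with 4 group means was fitted to all libraries and tested 5 comparisons of groups and the difference of changes. P-values were adjusted by Benjamini-Hochberg over every gene in the fit, at a threshold of 0.05 and a prior count of 0.125. Standard errors are the log2 change over the square root of F. The study's own test, an unequal-variance test of raw counts, was run as an alternative, as were DESeq2 1.42.0, library size scaling, other filters, a prior count of 2, removal of the GC and exon length trend, thinning, a log2 change over 1, a replicate block and each library left out. The code was tested on simulated data. The replicate numbers did not pair the libraries.

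The members, lists, tests and named genes were chosen with earlier results of these data known. Named were all members, the called gene with the largest change and at least 5 CPM of each list in each resistant line against its parent, and 8 genes fixed by name. Of the marker lists this gave KRT18, which fell in resistant 786-O (-0.86) and in resistant A498 against parental A498 (-1.46), and COL1A1, which fell in resistant A498 against parental A498 (-3.90). Gene positions and transcript lengths are from GENCODE on GRCh38, promoter windows from RefSeq on GRCh38.p14. Protein sequences were not used here. Some named genes and 1 sequence are not reported here.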

Additional observations from a re-analysis of the deposited data

Results flagged for a closer look

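The change in resistant A498 against parental A498 differed from that in resistant 786-O against parental 786-O, by the interaction contrast of the same edgeR model, for 8 of the 10 members, where 68.3% of all genes tested differed. With the GC and length trend removed, the median of the members' differences turned from -0.19 to 0.09, that of all genes moved from -0.02 to 0.18, and the share of calls above 0 rose from 49.6% to 60.7%. The difference (resistant A498 minus parental A498, minus resistant 786-O minus parental 786-O) was -10.11 ± 0.37 on the log2 scale for PHGDH (adjusted p = 5.0e-12) and -5.63 ± 0.30 for ALDH1L2 (adjusted p = 4.2e-10). PHGDH moved in opposite directions in these contrasts, and ALDH1L2 fell in both. PSPH, which also moved in opposite directions, differed by -1.39 ± 0.08 (adjusted p = 8.0e-10). PSAT1 (-0.37 ± 0.09, adjusted p = 0.0029) and SHMT1 (-0.33 ± 0.07, adjusted p = 0.00074) differed by less. The difference was above 0 for MTHFD2L (1.16 ± 0.19, adjusted p = 6.1e-05), MTHFD1L (0.75 ± 0.07, adjusted p = 1.4e-07) and MTHFD2 (0.14 ± 0.06, adjusted p = 0.034), the last of which lost its call without parental 786-O replicate 1 or 3, resistant 786-O replicate 3, parental A498 replicate 1 or 3, or resistant A498 replicate 1 (adjusted p up to 0.066), and also with library size scaling (0.27), DESeq2 (0.11), a floor of 10 counts per library (0.30), thinning (0.22), the GC and length trend removed (0.20) and without the filter on low counts (0.064). SHMT2 (-0.06 ± 0.08, adjusted p = 0.53) and MTHFD1 (0.16 ± 0.08, adjusted p = 0.11) were not called, but both were without resistant 786-O replicate 2 (-0.12, adjusted p = 0.033, and 0.25, adjusted p = 8.5e-05). These differences rest on the resistant A498 libraries, which stood nearer to parental 786-O than to parental A498.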

How the results depend on the processing

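Of 1408 values of single members over all alternatives, 1243 kept their direction and side of the threshold, 21 were not called and changed sign without gaining a call, 95 lost the call, 28 gained it and 21 others reversed. Requiring a log2 change over 1 as well left 2, 2, 4, 0, 3 and 4 members and 4382, 6137, 3983, 1455, 6360 and 6998 genes called in resistant 786-O against parental 786-O, resistant A498 against parental A498, resistant A498 against parental 786-O, resistant A498 against resistant 786-O, parental 786-O against parental A498 and the difference of changes. The unequal-variance test of raw counts called 8211 and 6222 genes in the first and second of these comparisons, 2 members in the second, 5 in resistant A498 against resistant 786-O and 5 in parental 786-O against parental A498. Raw counts carry the depth, which was lower in resistant A498, and with them the log2 values against resistant 786-O reversed for PHGDH (-0.13), PSAT1 (-0.30), PSPH (-0.30), SHMT1 (-0.38), SHMT2 (-0.87), MTHFD1 (-0.75), MTHFD2 (-0.35) and MTHFD2L (-0.54), as did MTHFD2 in resistant A498 against parental 786-O (-0.50) and in parental 786-O against parental A498 (0.13). A fit of only resistant A498 and resistant 786-O called 4 members. A minimum of 10 counts in every library, which drops PHGDH and ALDH1L2, left 5 members called in the difference of changes. Removing the GC and length trend reversed SHMT2 in resistant A498 against parental A498 (0.17), in parental 786-O against parental A498 (0.38) and in the difference of changes (0.61, and 0.62 with the replicate block), SHMT1 in that difference (0.086) and MTHFD2 in resistant A498 against parental 786-O (-0.051), with 0.17, 0.38, 0.086 and -0.051 also with the replicate block, which further turned MTHFD1 in parental 786-O against parental A498 to 0.17; the cause was not tested. Leaving out each library in turn gave 9 to 10, 6 to 8, 9 to 10, 4 to 8, 8 to 9 and 7 to 10 members and 12626 to 14880, 13884 to 15666, 11650 to 13999, 7591 to 10790, 14208 to 16038 and 13104 to 14731 genes called, in the order above, and in resistant A498 against resistant 786-O the count was 4 without resistant A498 replicate 1 and 5 without resistant A498 replicate 2 or 3 or resistant 786-O replicate 3. The deviations of same-numbered libraries from their group means had a correlation of -0.086 to 0.044 over 18 pairs, so that the libraries share only a number. The replicate number as a block gave 13497 in place of 13643 genes called in resistant 786-O against parental 786-O and changed the call of 1 member in 1 comparison, MTHFD2L in resistant A498 against resistant 786-O (adjusted p = 0.056). Depth limits PHGDH in parental 786-O, at 7 to 9 counts per library, and ALDH1L2 in resistant A498, at 6 to 13.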
